A study of Mus musculus with 6 samples.

Results

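Corticosterone, the main glucocorticoid of rodents, acts on cortical neurons through a pair of nuclear receptors. They are the glucocorticoid receptor, encoded by Nr3c1, and the mineralocorticoid receptor, encoded by Nr3c2. Unliganded receptor is held by a chaperone complex in the cytoplasm. After binding hormone it enters the nucleus, binds DNA at glucocorticoid response elements and raises or lowers transcription of its targets, among them Fkbp5, which feeds back on the receptor. Described here are these receptors and 8 genes known to be induced by glucocorticoids, Fkbp5, Sgk1, Tsc22d3, Klf9, Ddit4, Zbtb16, Errfi1 and Pdk4. They were picked by symbol, and all 10 were found among the 24421 genes of the table.

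The RNA came from sorted nuclei of mPFC (medial prefrontal cortex), taken from Foxp2-Cre mice and labelled as Foxp2 positive neurons. Foxp2 is a transcription factor of deep-layer corticothalamic neurons. Nuclei of Cre-expressing cells carried GFP joined to KASH, a domain that tethers it to the nuclear envelope, from an AAV injected on both sides 4 weeks before collection. The groups were 3 libraries labelled CFA (complete Freund's adjuvant, an agent of lasting inflammatory pain) and 3 labelled saline, each from 10000 sorted nuclei. All 6 share the Cre allele and the virus, and the labels give neither the age and sex of the mice nor the time between CFA or saline and collection. They also do not say whether each library is a separate animal, so p-values reflect the scatter among these 6 libraries, part of which may be technical.

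Total counts ranged from 9673038 to 11850741 per library. The excitatory marker Slc17a7 was at 1930 to 2650 CPM (counts scaled to library size) and Foxp2 at 24.0 to 43.7 CPM, with Gad1 of inhibitory neurons at 44.6 to 81.6 CPM. Summed CPM overlapped between the groups for markers of astrocytes (12 genes, 508 to 709 in CFA and 511 to 580 in saline), oligodendrocytes (12 genes, 331 to 524 and 361 to 478) and microglia (12 genes, 108 to 170 and 87.6 to 136). The same held for endothelial and mural markers (13 genes, 5.0 to 11.9 and 5.47 to 18.6) and inhibitory neuron markers (12 genes, 443 to 510 and 339 to 463). Gene by gene, log2 fold changes, CFA minus saline, were positive for 11 of 12 inhibitory neuron markers (median 0.27) and 10 of 12 microglia markers (median 0.49). They were positive for 7 of 12 astrocyte markers (median 0.31), 5 of 12 oligodendrocyte markers (median -0.032) and 0 of 4 endothelial and mural markers tested (median -0.15). Striatal projection neuron markers (11 genes) summed to 290 to 494 and 398 to 1040, with the highest value in saline replicate 1. All 10 striatal markers tested had a negative log2 fold change, CFA minus saline, with a median of -1.0. By edgeR's quasi-likelihood test 6 of them had an unadjusted p under 0.05 and 0 an adjusted one, and 2 were lower in every CFA library than in every saline library. The summed CPM of oligodendrocyte precursor markers did not overlap between the groups (8 genes, 32.0 to 48.8 in CFA and 19.0 to 29.5 in saline). Of the 6 tested, 5 had a positive log2 fold change (median 0.94). Every CFA library was above every saline library for 3 of them and below for 1, against 3.55% and 3.97% of all genes. Corticothalamic markers (10 genes) summed to 1240 to 1380 and 1200 to 1650, with 9 of 10 log2 fold changes negative and a median of -0.16, and pan-neuronal and excitatory markers (8 genes) to 7930 to 9420 and 7000 to 9330. No marker was at 0 in all 6 libraries. Saline replicate 3 stood apart, at 50.4 on a first principal component with 27.9% of the variance, where the other saline libraries were at -29.9 and -35.8 and the CFA libraries between -4.19 and 19.0. It also had the largest share of counts on the nuclear RNA Malat1, 2.77% against 1.36% to 2.2%.

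Receptor binding sites near the start of these genes were looked for in RefSeq promoter windows of build GRCm38.p6, each with 250 bases before and 50 bases after an annotated transcript start. The letters searched were a palindrome that corticosteroid receptors bind, AGAACA followed by any 3 bases and TGTTCT, and its 6-base arm alone, AGAACA or TGTTCT, which covers both strands. Each palindrome also counts as a window with an arm. Windows were found for 8 of the 10 genes, 16 windows in all, and not for Nr3c1 and Zbtb16. The full 15-base palindrome was present in 1 of the 16 windows (6.25%), and in 3 of all 32851 windows (0.00913%), that 1 among them. That window belongs to Sgk1, which has 6 windows of its own. The site lies 189 to 175 bases before the transcript start at position 21993890 of chromosome 10, inside the span of the Sgk1 gene but in no annotated exon, since longer Sgk1 transcripts start upstream. The arm alone was present in 4 of the 16 windows (25.0%), 3 of Sgk1 and 1 of Tsc22d3, against 19.0% of all windows. Of the 13192 windows of genes that passed the filter on low counts, 12.3% held an arm and 1 the palindrome (0.00758%). That 1 is the Sgk1 window itself, so this share is not an independent background. The stretch around the Sgk1 palindrome (plus strand, chr10:21993671-21993745) and that around the Tsc22d3 arm (minus strand, chrX:140600672-140600737) are shown because they are the only full palindrome and the only match outside Sgk1. Capitals mark the match, and the arm of Tsc22d3 lies 185 to 180 bases before the transcript start at position 140600522, outside any annotated gene.
Sgk1: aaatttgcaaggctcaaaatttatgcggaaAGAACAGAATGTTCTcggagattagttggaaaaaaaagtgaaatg
Tsc22d3: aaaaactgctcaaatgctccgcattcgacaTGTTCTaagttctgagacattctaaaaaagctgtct
A match is not a measured binding site, and a window without one says nothing about sites elsewhere.

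Levels of different genes were compared as CPM per kb of exon. Here and in the ratios below they are levels in RNA of sorted nuclei, and those of whole cells were not measured. Klf9 and Sgk1 were the most abundant, at 44.3 ± 6.87 CPM per kb in CFA and 41.7 ± 11.2 in saline for Klf9 and at 40.6 ± 9.61 and 39.8 ± 11.5 for Sgk1 (mean ± SD, n = 3 per group, here and below). Both lay above 82.9% or more of the 13560 genes that passed the filter on low counts. Their ranges over the 6 libraries overlapped, and Klf9 was above Sgk1 in 5 of them. Tsc22d3 came next at 26.8 ± 4.21 and 20.6 ± 1.91 CPM per kb, followed by Nr3c1 at 20.2 ± 1.5 and 20.5 ± 4.35, again with overlapping ranges. Errfi1, at 11.7 ± 3.89 and 11.7 ± 1.01, was below Nr3c1 and above Ddit4 in all 6 libraries, with no overlap on either side. The next 4 genes overlapped each with its neighbour in the order. They were Ddit4 (6.14 ± 0.587 and 5.04 ± 1.45), Zbtb16 (4.22 ± 1.2 and 6.24 ± 2.34), Nr3c2 (3.72 ± 0.337 and 4.41 ± 1.08) and Fkbp5 (3.36 ± 0.379 and 4.72 ± 1.30). Pdk4 was far below, at 0 to 0.409 CPM per kb. The median of all genes tested was 10.1 CPM per kb, so that Klf9, Sgk1, Tsc22d3, Nr3c1 and Errfi1 lay above it and the other members below.

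**Figure D1:**
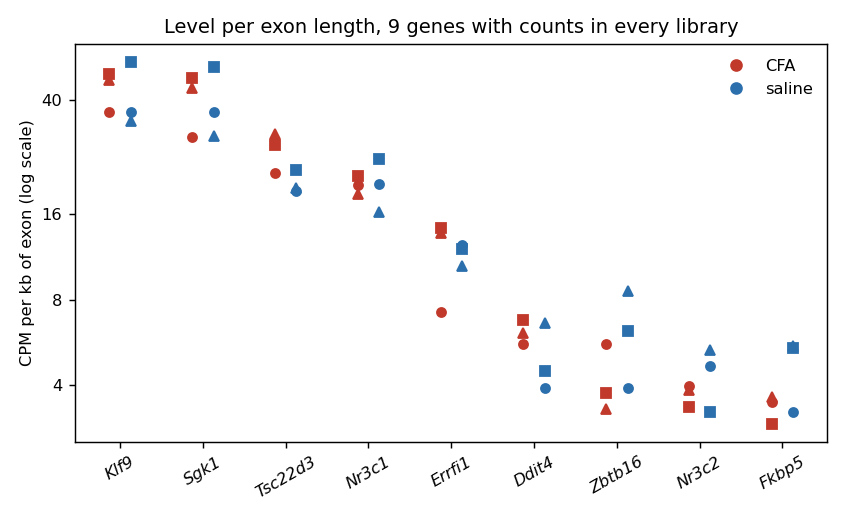
Level of 9 genes per exon length (y axis, CPM per kb of exon, log scale), with each point a library, red for CFA and blue for saline, and circles, squares and triangles for replicates 1, 2 and 3. Klf9 and Sgk1 are at the top with overlapping ranges, and Fkbp5 and Nr3c2 at the bottom. Pdk4, at 0 in 3 libraries, is left out.

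Comparing CFA with saline asked whether these transcripts differ between mice given the inflammatory agent and controls. No member passed the test. Over all 13560 genes, with edgeR's quasi-likelihood test and p-values adjusted by the method of Benjamini and Hochberg, 0 of the 9 members tested had an adjusted p under 0.05, where the background was 0 genes (0.0%). At an unadjusted p under 0.05 there were 0 members and 437 genes (3.22%). DESeq2, limma-voom and edgeR's likelihood ratio test also called 0 members, and called 5, 0 and 11 genes in all. The number of members whose CFA values all lay on one side of the saline values was 0 of 9, against 7.51% of all genes tested. Of the log2 fold changes, CFA minus saline, 5 were positive and 4 negative (49.8% positive over all genes), with a median of 0.0029 against -0.0011 over all genes. Without saline replicate 3 only Tsc22d3 and Ddit4 were positive, and 3 members were when CFA replicate 2 or saline replicate 1 was left out. Pdk4 did not pass the filter. In sorted nuclei of many cells, fewer cells that express a gene and less RNA per cell cannot be told apart.

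**Figure D2:**
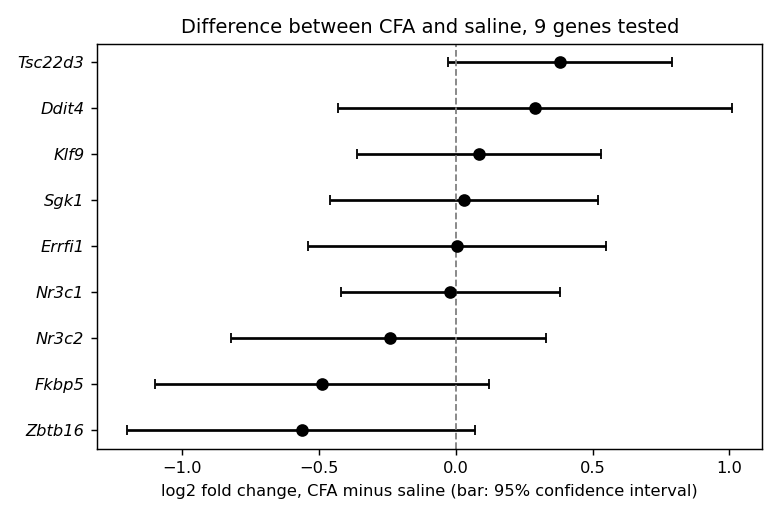
Log2 fold change, CFA minus saline (x axis), of the 9 genes tested (y axis), with points for edgeR's estimates from 3 against 3 libraries and bars for 95% confidence intervals. Every interval includes 0, and the estimates run from -0.56 for Zbtb16 to 0.38 for Tsc22d3.

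Of the receptors, Nr3c1 (chromosome 18, 39410545 to 39487245, mm10) was at 128, 138 and 119 CPM in CFA replicates 1, 2 and 3 and at 129, 158 and 103 CPM in saline replicates 1, 2 and 3. The CFA values lay inside the range of the saline values, whose replicates 2 and 3 were the highest and the lowest of all 6. The group means were 128 ± 9.47 and 130 ± 27.5 CPM. The log2 fold change was -0.022 ± 0.19 (SE, here and below), with a 95% confidence interval of -0.42 to 0.38. Expressed as a ratio the interval ran from 0.746 to 1.30. Its sign was positive without CFA replicate 3 (0.031) and without saline replicate 2 (0.14).

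Nr3c2 (chromosome 8, 76902508 to 77243639), whose product binds corticosterone with the higher affinity of the pair, was much lower. It was at 16.3, 13.7 and 15.7 CPM in the CFA libraries and at 19.1, 13.2 and 21.8 CPM in the saline libraries. Saline replicates 1 and 3 were above every CFA library and saline replicate 2 below, so the groups overlapped. The log2 fold change was -0.24 ± 0.27 with an interval of -0.82 to 0.33, and it was -0.085 without saline replicate 3 and -0.42 without saline replicate 2.

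The ratio of Nr3c1 to Nr3c2 per kb of exon does not depend on the scaling of a library. It was 5.05, 6.5 and 4.89 in CFA and 4.36, 7.74 and 3.05 in saline libraries, so that Nr3c1 was above Nr3c2 in all 6. The highest and the lowest ratio were both in the saline group. The means were 5.48 ± 0.887 and 5.05 ± 2.42. The two-sided exact permutation test on the log2 ratio gave p = 0.7, where 3 against 3 cannot go below 0.1. This ratio and that of Fkbp5 to Nr3c1 were chosen after the values were seen (adjusted over both, p = 0.7 in the exact permutation test).

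Fkbp5 (chromosome 17, 28398753 to 28486149) encodes the co-chaperone FKBP51, which lowers the affinity of the receptor complex for hormone. It was at 13.6, 11.4 and 14.1 CPM in the CFA libraries and at 12.5, 21.1 and 21.4 CPM in the saline libraries. Saline replicates 2 and 3 stood above all other libraries, while saline replicate 1 lay among the CFA values. The means were 13.0 ± 1.47 and 18.4 ± 5.05 CPM. With a log2 fold change of -0.49 ± 0.29 and an interval of -1.10 to 0.12, edgeR's quasi-likelihood fit gave an unadjusted p of 0.107 and an adjusted p of 1. The estimate was negative under all 14 alternatives, from -0.71 without saline replicate 1 to -0.37 without saline replicate 2 or 3. Striatal markers also had negative values, 10 of 10 with a median of -1.0, and saline replicate 1, with the highest striatal sum, had the lowest Fkbp5 of the saline libraries. Corticothalamic markers were negative in 9 of 10 cases (median -0.16) and endothelial and mural markers in 4 of 4 (median -0.15). Of the oligodendrocyte markers 7 of 12 were negative (median -0.032). The part of striatal nuclei or of these other cell types in the Fkbp5 value was not tested. Relative to Nr3c1, per kb, Fkbp5 was at 0.174, 0.135 and 0.194 in CFA and at 0.158, 0.218 and 0.339 in saline libraries (exact permutation p = 0.3, two-sided, and 0.6 adjusted over both ratios).

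Sgk1 (chromosome 10, 21882184 to 21999902), the serum- and glucocorticoid-regulated kinase, which acts on ion channels and transporters, was the member with the most reads. It was at 124, 200 and 184 CPM in the CFA libraries and at 152, 218 and 125 CPM in the saline libraries. CFA replicate 1 and saline replicate 3 were low and saline replicate 2 high, a spread within each group that exceeded the difference of the means, 169 ± 39.9 and 165 ± 47.8 CPM. Its log2 fold change of 0.032 ± 0.23 had an interval of -0.46 to 0.52. The sign was negative in 4 of the 6 fits that left out a library, at -0.13 without saline replicate 3, -0.11 without CFA replicate 2, -0.031 without CFA replicate 3 and -0.029 without saline replicate 1.

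Among the transcriptional regulators, Tsc22d3 (chromosome X, 140539529 to 140600522) encodes GILZ, an anti-inflammatory mediator of glucocorticoids that acts on NF-kB and AP-1. It was at 58.8, 73.9 and 80.6 CPM in the CFA libraries and at 51.0, 60.3 and 52.2 CPM in the saline libraries. Only CFA replicate 1 lay below a saline library, replicate 2. The means were 71.1 ± 11.1 and 54.5 ± 5.05 CPM, and the log2 fold change of 0.38 ± 0.19 (interval -0.03 to 0.79) was the largest positive one among the 9. The quasi-likelihood fit of edgeR gave it an unadjusted p of 0.0658 and an adjusted p of 1. The estimate was positive under all 14 alternatives, from 0.29 to 0.50, and with library sizes alone as the scaling the groups of Tsc22d3 did not overlap. The summed CPM of oligodendrocyte precursor markers was higher in each CFA library than in each saline library (above). Of the 6 precursor markers tested, 5 had a positive log2 fold change, with 3 higher and 1 lower in every CFA library. Markers of microglia, astrocytes and inhibitory neurons had positive medians too (0.49, 0.31 and 0.27). Of these, 3 astrocyte, 1 microglia and 1 inhibitory neuron marker were higher in every CFA library (3.55% of all genes). The part of these cell types in the Tsc22d3 value was not tested.

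Klf9 (chromosome 19, 23141226 to 23166911), a Krüppel-like transcription factor induced by corticosterone in neurons, was at 119, 161 and 154 CPM in CFA and at 119, 178 and 111 CPM in saline libraries. As for Sgk1, saline replicate 2 was the highest library and saline replicate 3 and CFA replicate 1 were low, here together with saline replicate 1. The log2 fold change was 0.086 ± 0.21 with an interval of -0.36 to 0.53, and it was -0.043 without saline replicate 3 and -0.0035 without saline replicate 1.

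Zbtb16 (chromosome 9, 48654297 to 48835945), which encodes the zinc finger repressor PLZF, was at 28.5, 19.2 and 16.9 CPM in CFA and at 20.0, 31.7 and 44.0 CPM in saline libraries. Saline replicate 3 was the highest by far, and saline replicate 1 lay among the CFA values. The means were 21.6 ± 6.15 and 31.9 ± 12 CPM. Its log2 fold change of -0.56 ± 0.30 (interval -1.2 to 0.07) was the largest negative one of the 9, with quasi-likelihood p-values (edgeR) of 0.0777 unadjusted and 1 adjusted. All 14 alternatives gave a negative value, between -0.83 (CFA replicate 1 left out) and -0.26 (saline replicate 3 left out, the library with the largest Malat1 share). The 10 striatal markers tested had negative values too (median -1.0), and of the saline libraries Zbtb16 was lowest in replicate 1, where the striatal sum was highest. Markers of corticothalamic neurons, of endothelial and mural cells and of oligodendrocytes also had negative medians (-0.16, -0.15 and -0.032). The part of striatal nuclei or of these other cell types in the Zbtb16 value was not tested.

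Ddit4 (chromosome 10, 59949675 to 59951770) encodes REDD1, an inhibitor of mTORC1 signalling that is also induced by hypoxia and DNA damage. It was at 9.40, 11.4 and 10.3 CPM in CFA and at 6.62, 7.60 and 11.2 CPM in saline libraries. Saline replicates 1 and 2 were below every CFA library and saline replicate 3 was among them. The log2 fold change was 0.29 ± 0.34 with an interval of -0.43 to 1.01, 0.54 without saline replicate 3 and 0.13 without saline replicate 1.

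Errfi1 (chromosome 4, 150855091 to 150868880) encodes MIG6, a feedback inhibitor of the EGF receptor family. It was at 21.9, 43.0 and 41.2 CPM in CFA and at 37.6, 36.4 and 31.8 CPM in saline libraries. CFA replicate 1 was the lowest and the other CFA libraries were the highest, on both sides of the saline values. The means were 35.4 ± 11.7 and 35.3 ± 3.05 CPM. Its log2 fold change of 0.0029 ± 0.25 had an interval of -0.54 to 0.55 and no stable sign, since it was -0.010 with RLE scaling. It was 0.25 without CFA replicate 1.

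Pdk4 (chromosome 6, 5483351 to 5496278), a kinase that inhibits pyruvate dehydrogenase, was close to the limit of detection, with 30 counts in all 6 libraries together. It had 0, 16 and 5 counts in CFA replicates 1, 2 and 3 and 0, 9 and 0 counts in saline replicates 1, 2 and 3. In the libraries with counts this was 1.41, 0.481 and 0.835 CPM. A count of 0 allows up to 3 counts, which is 0.25, 0.268 and 0.304 CPM in the libraries at 0 (counting error only). In a two-sided exact permutation test on log2 CPM the groups gave p = 0.7, and a difference was not detectable at these counts.

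**Figure D3:**
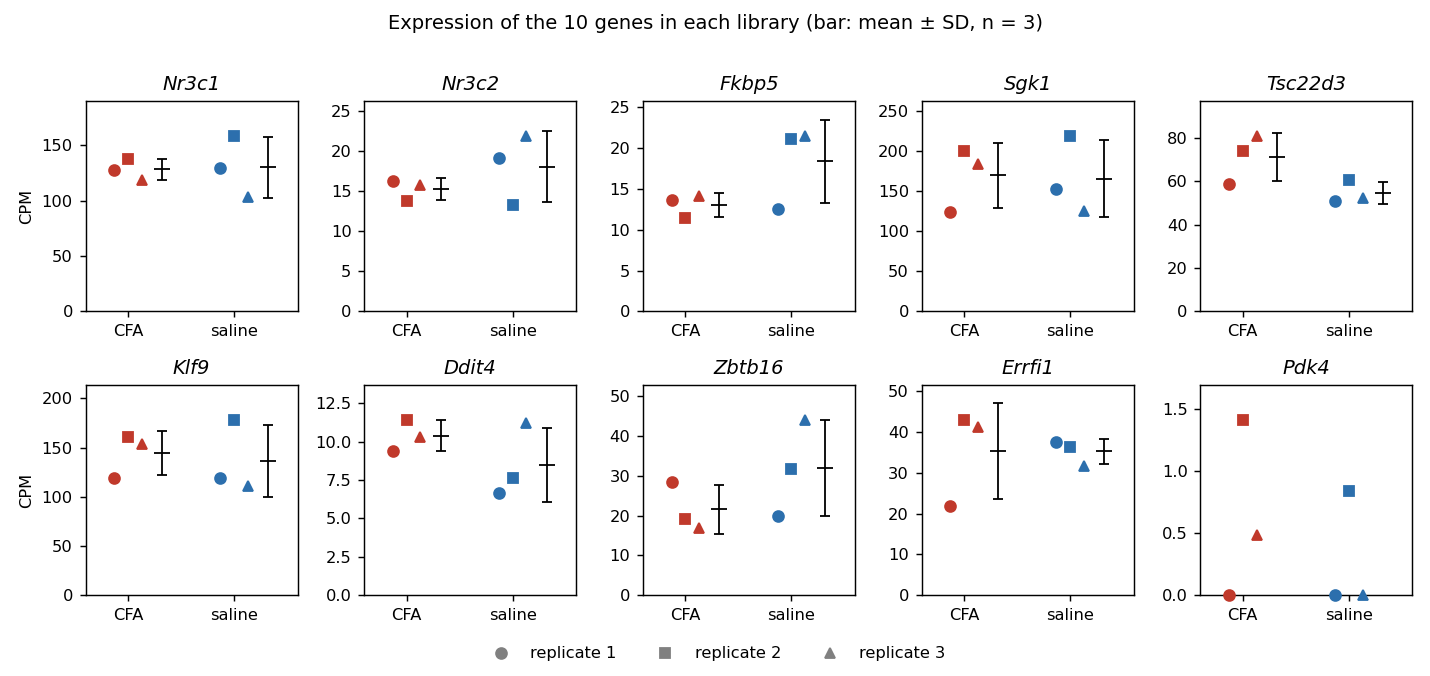
CPM (y axis, from 0) of the 10 genes in each library, red for CFA and blue for saline, with circles, squares and triangles for replicates 1, 2 and 3 and black bars for mean ± SD of 3 libraries (not drawn for Pdk4). The groups overlap in every panel, and Tsc22d3 and Zbtb16 have the smallest unadjusted p-values (0.0658 and 0.0777 in edgeR's fit).

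No library was the highest or the lowest for all members. Saline replicate 2 was the highest library for Nr3c1, Sgk1 and Klf9, and saline replicate 3 for Nr3c2, Fkbp5 and Zbtb16. Saline replicate 3 was at the same time the lowest for Nr3c1 and Klf9. CFA replicate 1 was the lowest for Sgk1 and Errfi1, and highest for none. CFA replicate 2 was highest for Ddit4 and Errfi1 and lowest for Fkbp5, and CFA replicate 3 was highest for Tsc22d3 and lowest for Zbtb16. Saline replicate 1 was lowest for Tsc22d3 and Ddit4. The biological coefficient of variation estimated by edgeR, the spread between libraries beyond counting error, was 16.9% for Nr3c1, 17.4% for Tsc22d3 and 18.5% for Klf9. For Sgk1 it was 20.2%, against 17.2% for genes of its abundance. At the other end it was 25.1% for Fkbp5 (26.6% for genes of its abundance), 25.9% for Zbtb16 (22.6%) and 29.0% for Ddit4 (32.4%).

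**Figure D4:**
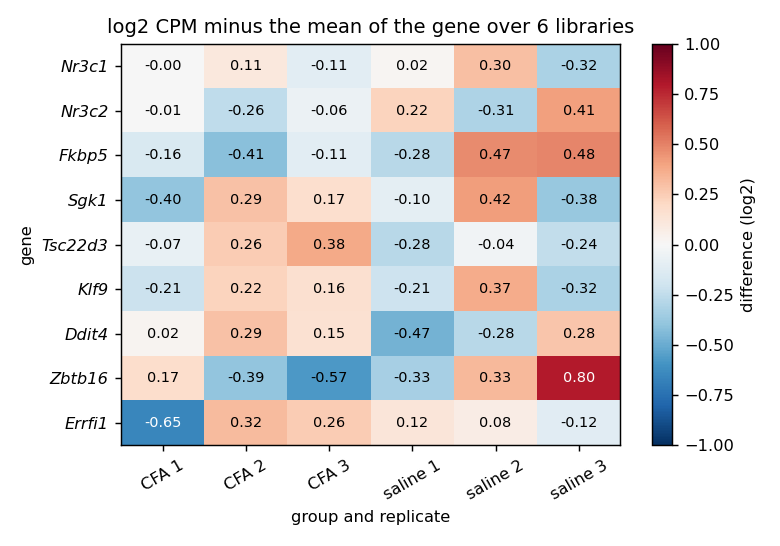
Difference of log2 CPM from the mean of each gene over the 6 libraries (colour and printed value, log2) for the 9 genes tested (rows) in each library (columns). Saline 2 and saline 3 hold the highest value of 6 genes, and they lie on opposite sides of the mean for Nr3c1, Nr3c2, Sgk1, Klf9, Ddit4 and Errfi1.

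The machinery around the receptors was described with 4 lists, and 0 genes of any list were called by edgeR's quasi-likelihood test. Of the receptor chaperones, all 14 were tested, 7 with a positive and 7 with a negative log2 fold change and a median of -0.0014. Their values lay between -0.18 and 0.18. Fkbp4, the co-chaperone that competes with FKBP51 for the receptor complex, was at 163, 148 and 179 CPM in CFA and at 142, 143 and 149 CPM in saline libraries. The difference was 0.18 ± 0.16 on the log2 scale. Hspa4, an HSP70-family chaperone, was at 74.0, 75.2 and 81.6 CPM in CFA and at 81.8, 85.3 and 94.8 CPM in saline libraries. Its groups did not overlap, by a narrow gap, as was the case for 3.97% of all genes in this direction, and the log2 fold change was -0.18 ± 0.17.

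Receptor coregulators, the proteins that carry out activation or repression at the bound site, were all tested, with 5 positive and 10 negative of 15 and a median of -0.14. The median was -0.055 without saline replicate 3 and -0.073 without saline replicate 2. In 2 of them, Crebbp and Ube3a, every CFA library was below every saline library, where the share of all genes was again 3.97%. Crebbp, the histone acetyltransferase CBP, was at 61.7, 60.7 and 40.9 CPM in CFA and at 81.7, 86.2 and 64.4 CPM in saline libraries. Its log2 fold change was -0.51 ± 0.21, with quasi-likelihood p-values (edgeR) of 0.0297 unadjusted and 1 adjusted. Ube3a, a ubiquitin ligase that is also a coactivator of steroid receptors, was at 200, 206 and 150 CPM and at 222, 214 and 241 CPM, a difference of -0.28 ± 0.18 on the log2 scale.

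In the list of steroid supply and corticotropin signalling 6 of 10 genes passed the low-count filter, with 4 positive and 2 negative and a median of 0.092. This median was 0.29 without the filter, 0.24 without saline replicate 3 and -0.031 without CFA replicate 1. Crh, Crhr2, Hsd11b2 and Abcb1a did not pass it. H6pd, which supplies NADPH to the corticosterone-regenerating enzyme in the endoplasmic reticulum, was at 8.24, 8.02 and 10.4 CPM in CFA and at 12.6, 9.64 and 17.3 CPM in saline libraries (log2 fold change -0.57 ± 0.32). Srd5a1, a steroid 5-alpha-reductase that inactivates corticosterone, was at 9.07, 11.6 and 11.2 CPM in CFA and at 15.4, 14.9 and 13.3 CPM in saline libraries. Its groups did not overlap (3.97% of all genes in this direction), with a log2 fold change of -0.45 ± 0.28 and a quasi-likelihood p (edgeR) of 0.128, unadjusted. Hsd11b1, the regenerating enzyme itself and a gene named after its values were seen, ranged from 0.915 to 8.91 CPM in CFA and from 1.76 to 3.14 CPM in saline libraries (log2 fold change 1.06 ± 0.70).

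Other genes known to be induced by glucocorticoids were tested in 34 of 40 cases, with 18 positive and 16 negative and a median of 0.054. Groups did not overlap for 1 gene higher and 2 lower in CFA, against 3.55% and 3.97% of all genes. Irs2, an insulin receptor substrate, was at 50.3, 50.0 and 54.5 CPM in CFA and at 73.2, 62.7 and 82.7 CPM in saline libraries. This was a log2 fold change of -0.50 ± 0.19, with quasi-likelihood p-values (edgeR) of 0.0181 unadjusted and 1 adjusted. Cdo1, an enzyme of cysteine breakdown, was at 19.1, 14.1 and 24.3 CPM in CFA and at 29.7, 35.9 and 18.3 CPM in saline libraries (log2 fold change -0.55 ± 0.29), with overlap.

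**Figure D5:**
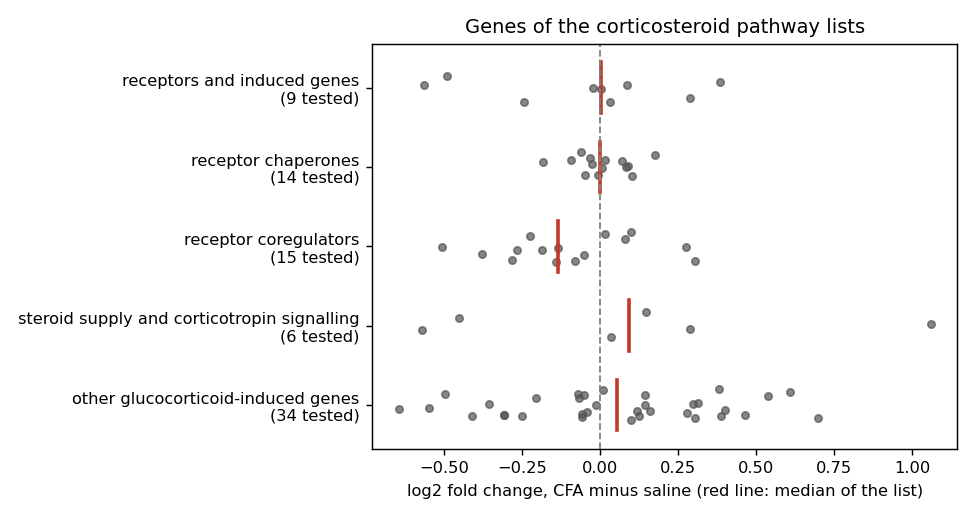
Log2 fold change, CFA minus saline (x axis), of each tested gene (points) in the receptors and induced genes described above and in 4 lists of the pathway (rows), with the median of each as a red line. Chaperones lie within 0.18 of 0, and the point at 1.06 is Hsd11b1.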

How the data were processed

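RNA was measured in 3 CFA and 3 saline libraries of polyadenylated RNA from sorted nuclei, grouped by sample title. The authors deposited raw counts of reads per gene for 24421 genes, together with exon intervals and exon length (per the file headers). The submitters' processing notes name featureCounts 2.0.1, HISAT2 2.2.1, Trim Galore, SAMtools 1.13, edgeR 3.32.1 and build mm10. How strand and multi-mapping reads were handled is not given in the sources used here. No exon of the 10 members overlapped that of another gene model.

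The whole table was fitted with edgeR 4.0.16 (R 4.3.3) by the quasi-likelihood test, with TMM scaling, filterByExpr, treatment as the only term and Benjamini-Hochberg adjustment (threshold 0.05). Standard errors come from the F statistic and 95% intervals from its degrees of freedom. The prior count for log2 CPM was 2. The gene-wise tests without a block were tried on simulated data first. Counts of every library pair differed by more than sampling noise (smallest chi-square over its degrees of freedom, 16.4). Alternatives covered scaling, filtering, DESeq2 1.42.0, limma-voom (limma 3.58.1), the likelihood ratio test, a replicate block and leaving out each library. Genes and lists were chosen with earlier results of these data known. Named genes are the 10 members and, from each pathway list, the 2 tested genes with the smallest p. Hsd11b1 was named in addition, after its values were seen.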

Additional observations from a re-analysis of the deposited data

How the results depend on the processing

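None of the 14 alternatives called a member (adjusted p of 0.795 or more). At an unadjusted p under 0.05 there were 2 members without CFA replicate 1 (Tsc22d3 and Zbtb16, against 2.94% of all genes), 2 without saline replicate 1 (Fkbp5 and Zbtb16, against 3.91%), 1 without a low-count filter (Zbtb16, against 4.12%) and 0 under the other alternatives. Tsc22d3 and Ddit4 stayed positive, and Nr3c2, Fkbp5 and Zbtb16 negative, under all 14. Errfi1 turned negative with RLE scaling (-0.010), a stricter filter (5 CPM or more in 3 or more libraries, -0.0022), DESeq2 (-0.010), limma-voom (-0.069) and the replicate block (-0.050). Over the fits without 1 library, log2 fold changes ran from -0.17 to 0.14 for Nr3c1, -0.13 to 0.29 for Sgk1, -0.043 to 0.33 for Klf9 and -0.17 to 0.25 for Errfi1. Over all genes, 9 were called without a low-count filter, 5 by DESeq2, 11 by the likelihood ratio test and 6 with the replicate block, and 0 to 5 without 1 library (5 without saline replicate 3). Positive members numbered 2 to 6 without 1 library. Members without overlap numbered 1 with library sizes alone (Tsc22d3, against 7.58% of all genes) and 0 to 3 without 1 library. They were Errfi1, Tsc22d3 and Zbtb16 without CFA replicate 1 (15.5% of all genes), Fkbp5 and Zbtb16 without saline replicate 1 (17.4%), Tsc22d3 and Nr3c2 without saline replicate 2 (17.2%), and Ddit4 without saline replicate 3 (22.5%), and the cause was not tested. Fits with fewer libraries compare 2 with 3, where separation is easier. Over all 14, list medians ran from -0.12 to 0.06 for chaperones (-0.12 without saline replicate 3), -0.2 to -0.055 for coregulators, -0.031 to 0.29 for steroid supply and -0.046 to 0.11 for other induced genes. Pairing by replicate number was not seen (correlations of -0.0793 to 0.0249 between deviations of same-numbered libraries), though 3 libraries per group cannot exclude it. The replicate block called 0 members. The order of the levels was the same with library sizes alone for all 10 members. Pdk4, with 30 counts in all, entered the edgeR fit only without a filter (unadjusted p = 0.491).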
